A study of Mus musculus with 12 samples.

Results

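The Dppa genes measured here are Dppa2, Dppa3, Dppa4 and Dppa5a, named as developmental pluripotency associated genes because their transcripts are abundant in pluripotent cells of the early mouse embryo. The rule takes them by symbol and uses no measured value. Each probe on the arrays carries the identifier of a transcript, and 7 of the 39429 probes carried one that belongs to a Dppa gene of this list. The 4 genes are 4 of the 29546 genes tested.

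Dppa2 and Dppa4 encode nuclear proteins with a SAP domain that bind each other and sit at CpG-rich promoters, where they are known to keep bivalent promoters free of DNA methylation and to favour transcription of the genes of the 2-cell-stage embryo. Dppa3, also called Stella or PGC7, encodes a small maternal and germ line protein that shields methylated DNA from Tet oxidation in the zygote and that can hold Uhrf1, the partner of Dnmt1, away from chromatin. Dppa5a, also called Esg1, encodes an RNA-binding protein with a KH domain. All of them are used as readouts of the pluripotent state, and the promoters of several are subject to DNA methylation when cells differentiate.

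The arrays came from E14 mouse embryonic stem cells, an established line grown here without feeders on gelatin in medium with serum and LIF, the cytokine that sustains self-renewal. Cells were transfected with esiRNAs, pools of short RNAs cut by an endonuclease from a longer double strand, and total RNA was taken 48 h later. Each of 6 groups had 2 arrays: EGFP KD as the control, Dnmt1 KD (the maintenance DNA methyltransferase), Tet1 KD (a dioxygenase that oxidizes 5-methylcytosine), Mbd3 KD and Mbd2 KD (methyl-CpG-binding domain proteins, which belong to separate forms of the NuRD complex) and Chd4 KD (the NuRD ATPase). All groups share the line, the transfection and its lipid carrier, and the labels name no transgene or knockout. Each KD was a transient transfection of dish cultures of a single line, and the mRNA of each target on the arrays of its own KD is given below. The study asked whether these factors act on shared genes in ES cells.

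Signals are given as log2 of the scanner's processed signal divided by the 75th percentile of the same array, so that 0 is the 75th percentile of all spots. Across the 12 arrays that percentile lay between 1784.5 and 2451.6 scanner units, and from 76.9 to 95.2% of probes were well above background. They were spread over 3 slides. EGFP, Dnmt1, Mbd3 and Mbd2 KD had their replicate 1 on slide 1, both Tet1 KD arrays shared slide 2 with EGFP KD replicate 2 and Chd4 KD replicate 1, and slide 3 carried Dnmt1, Mbd3, Mbd2 and Chd4 KD, each as replicate 2, without a control array. Of 9 markers of ES cells, 8 were well above background on all arrays, and the probe for Nanog was so on 10 of 12.

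The targeted genes were read first, as a check of the labels. As log2 differences from the EGFP KD mean, Mbd3 was at -3.07 and -2.85 on the Mbd3 KD arrays, Chd4 at -1.55 and -1.01 on the Chd4 KD arrays and Dnmt1 at -1.64 and -2.35 on the Dnmt1 KD arrays. The brightest Tet1 probe was at -0.02 on the array labelled Tet1 KD replicate 1, at -1.81 on that labelled Tet1 KD replicate 2 and at -1.79 on that labelled Mbd2 KD replicate 1. One probe for Mbd2, A_66_P133043, was at -0.24 on the array labelled Mbd2 KD replicate 1, at -1.77 on Mbd2 KD replicate 2 and at -1.75 on the array labelled Tet1 KD replicate 1, whereas the brightest Mbd2 probe was at -0.08 and -0.07 on the Mbd2 KD arrays. Replicate 1 of Tet1 KD and of Mbd2 KD thus went against their labels, so values for these KDs refer to the arrays as labelled. For the brightest probes of Dppa2, Dppa3 and Dppa4 the fold changes against EGFP KD are also given without replicate 1. Values of other genes and probes in these KDs are given only as labelled.

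All 7 Dppa probes were well above background on all 12 arrays and passed the filter on dim probes. Dppa2 has 2 probes, Dppa3 has 1, Dppa4 has 3 and Dppa5a has 1, and the brightest probe of a gene stands for it. Dppa5a was saturated on every array, so its level is only a lower bound. A gene was called where its limma p, adjusted by Benjamini-Hochberg over the 29546 genes, was under 0.05, and 0 Dppa genes were called against EGFP KD in any KD. Of all genes, 0% were called in Dnmt1, Tet1 and Mbd2 KD, 0.762% in Mbd3 KD and 3.2% in Chd4 KD. An unadjusted p under 0.05 was reached by 1 Dppa gene in Mbd3 KD (Dppa3, with 9.66% of all genes) and 1 in Chd4 KD (Dppa2, with 12.8%), and by 0 in Tet1 KD (2.85%), Mbd2 KD (2.06%) and Dnmt1 KD (4.67%). Dppa3 in Mbd3 KD came nearest, at 50.4% of its control signal on average.

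**Figure D1:**
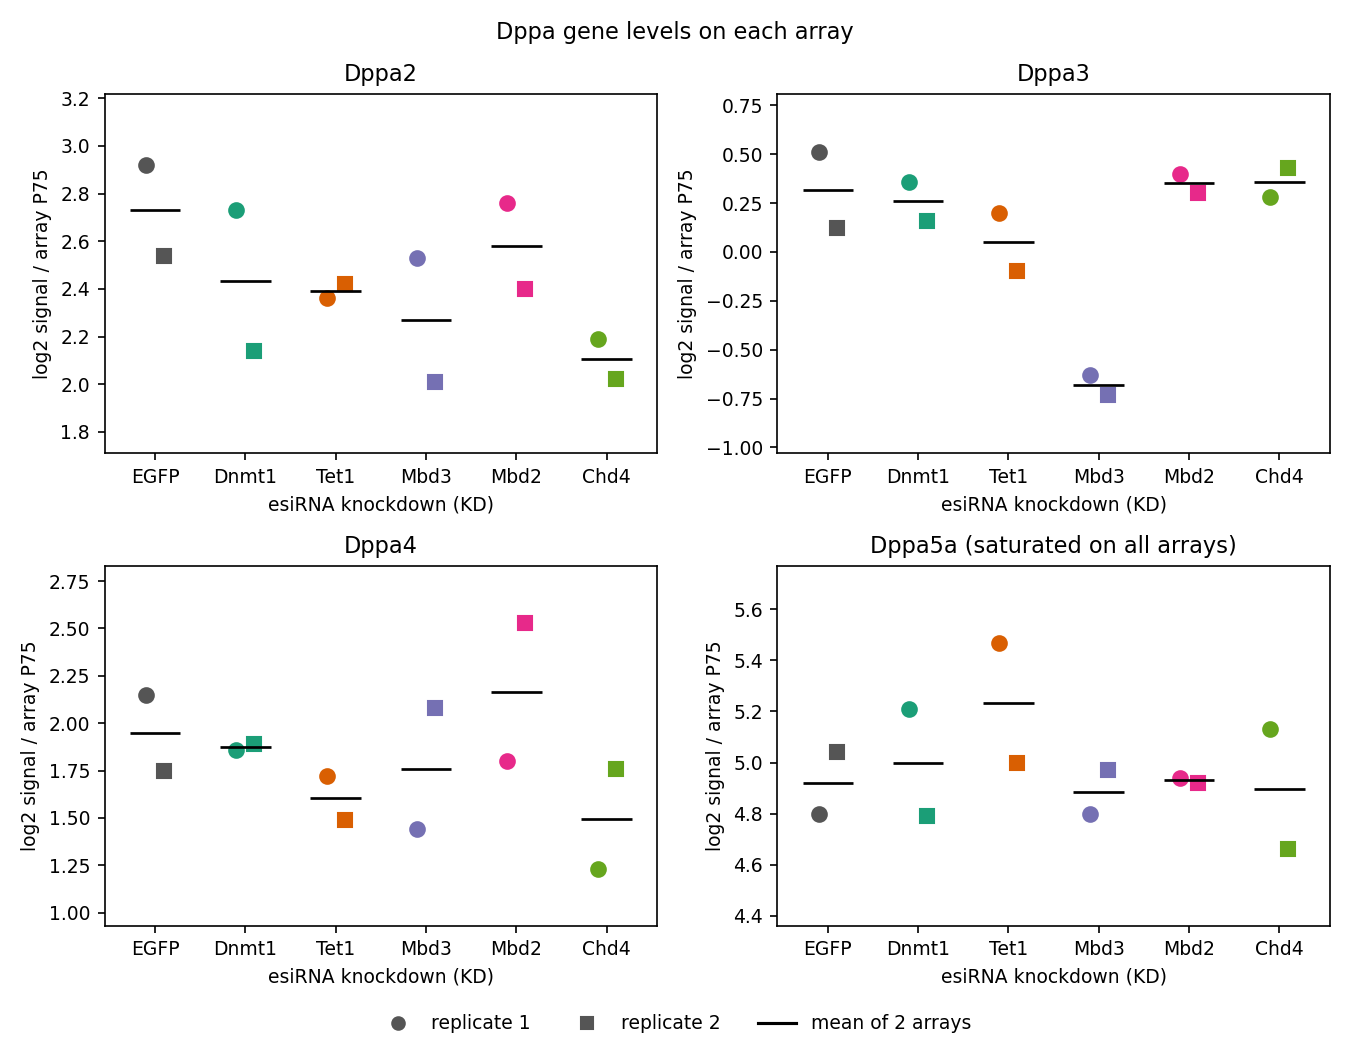
Log2 signal over the array's 75th percentile (y axis) for the brightest probe of each Dppa gene on each array, by group (x axis). Circles are replicate 1, squares are replicate 2 and the black lines are means of 2 arrays. Both Mbd3 KD arrays of Dppa3 lie below 0, at -0.63 and -0.73, Dppa5a is saturated throughout, and each panel has its own scale.

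Dppa3, the maternal factor that protects DNA methylation marks, was measured by probe A_55_P2091496. Its log2 signal was 0.51 and 0.12 on the EGFP KD arrays, 0.36 and 0.16 on the Dnmt1 KD arrays, 0.20 and -0.10 on those labelled Tet1 KD, -0.63 and -0.73 in Mbd3 KD, 0.40 and 0.30 on those labelled Mbd2 KD, and 0.28 and 0.43 in Chd4 KD. Both Mbd3 KD arrays lay below all the others, with a gap of 0.75 to the lower EGFP KD array, and the other 4 KDs overlapped the control. Ordered by mean the groups ran from Mbd3 KD at -0.68 ± 0.07 (SD, n = 2) through Tet1 KD at 0.05 ± 0.21, Dnmt1 KD at 0.26 ± 0.14 and EGFP KD at 0.31 ± 0.27 to Mbd2 KD at 0.35 ± 0.07 and Chd4 KD at 0.35 ± 0.11. From Tet1 KD upward neighbours differed by less than their spread, the widest step being 0.20 between Tet1 KD and Dnmt1 KD.

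Against EGFP KD, Dppa3 differed by a log2 fold change of -0.99 (SE 0.16) in Mbd3 KD, a 1.99-fold lower signal, with a limma adjusted p of 0.058, which missed the threshold. Arrays that did not overlap with the controls were a weaker criterion, met in Mbd3 KD by 30.1% of all genes and by 2 of the 3 Dppa genes that could be compared, Dppa2 and Dppa3, both lower. The value for Dppa3 was -0.06 in Dnmt1 KD, -0.26 on the arrays labelled Tet1 KD, 0.04 on those labelled Mbd2 KD and 0.04 in Chd4 KD, each with SE 0.16 and a limma adjusted p of 1. Without the array labelled Tet1 KD replicate 1 the Tet1 KD value was -0.41, and leaving out replicate 1 as labelled Mbd2 KD the Mbd2 KD value was -0.01, both again with a limma adjusted p of 1. The signal comes from whole cultures, so fewer cells that express a gene and less RNA per cell cannot be told apart.

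**Figure D2:**
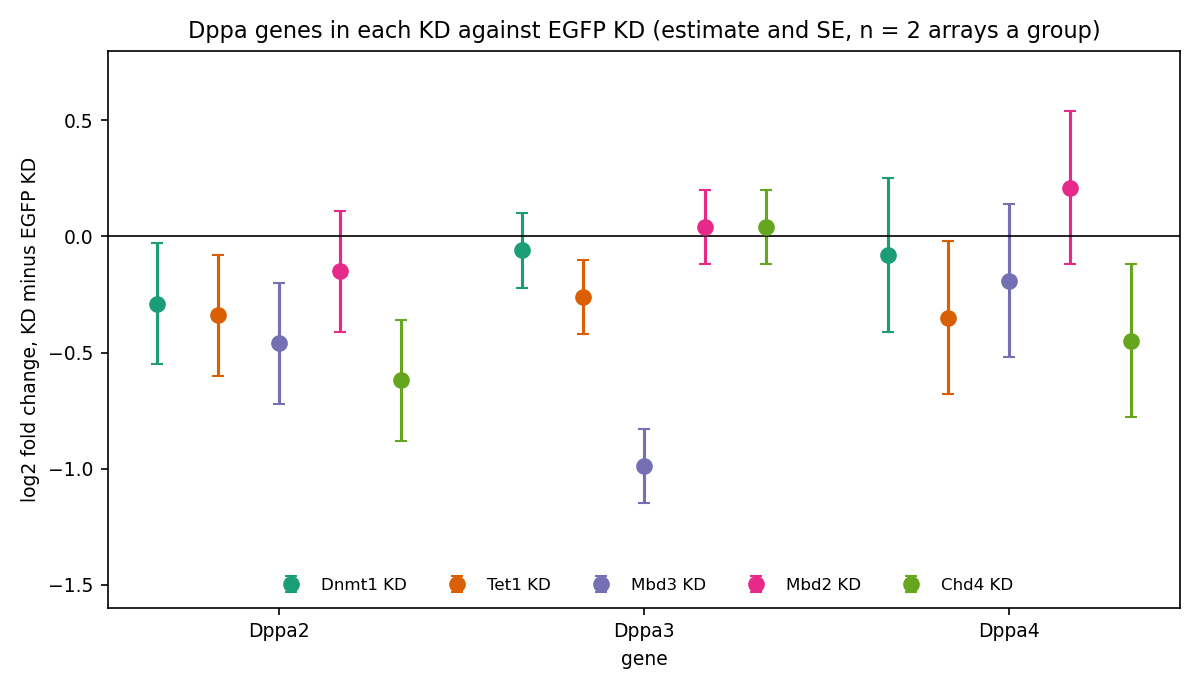
Log2 fold change of each KD against EGFP KD (y axis) for Dppa2, Dppa3 and Dppa4 (x axis), with points as estimates from the model over all 12 arrays and bars as standard errors. Dppa3 in Mbd3 KD, at -0.99, lies farthest from 0. The 5 comparisons share the EGFP KD arrays, and Dppa5a is left out because it was saturated.

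Whether Dppa3 differed between KDs was tested in the same model for all 10 pairs of KDs, in which the control arrays enter only the estimate of the spread. Over the 3 Dppa genes with a measurable range this gave 30 differences, with p-values adjusted over all genes within each pair, and 1 was called. Dppa3 was lower in Mbd3 KD than in Chd4 KD, which targets the ATPase of the complex that Mbd3 belongs to, with a difference of -1.03 on the log2 scale (SE 0.16, limma adjusted p = 0.036), where 1.41% of all genes were called. This call was lost when any 1 of the 10 KD arrays was left out (limma adjusted p from 0.056 to 0.2) and kept without either EGFP KD array (0.038 each). It was lost too without all 4 arrays of Tet1 KD and Mbd2 KD, at an unchanged difference of -1.03 with a limma adjusted p of 0.12. For the other 3 KDs the difference was of similar size and missed the threshold, being -1.03 for Mbd3 KD minus Mbd2 KD (limma adjusted p = 0.059, with 0.521% of genes called), 0.93 for Dnmt1 KD minus Mbd3 KD (0.07, with 0.66% called) and 0.73 for Tet1 KD minus Mbd3 KD (0.14, with 0.467% called). With replicate 1 of the arrays labelled Mbd2 KD left out, the first of these was -0.97 (limma adjusted p = 0.24), and without the array labelled Tet1 KD replicate 1 the last was 0.58 (0.44). The 6 pairs that leave out Mbd3 KD gave Dppa3 differences between -0.30 and 0.20 and 0 were called, all with p above 0.05, where 0% of all genes were called between Dnmt1, Tet1 and Mbd2 KD and 2.63, 2.83 and 3.11% for Dnmt1, Tet1 and Mbd2 KD minus Chd4 KD.

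Dppa3 was also compared between arrays of the same slide. On slide 1, the difference of Mbd3 KD replicate 1 was -1.13 from EGFP KD and -1.03 from the array labelled Mbd2 KD, and Dnmt1 KD minus Mbd3 KD was 0.98. On slide 3, the difference of Mbd3 KD replicate 2 was -1.02 from Mbd2 KD and -1.16 from Chd4 KD, and Dnmt1 KD minus Mbd3 KD was 0.88. The Mbd3 KD array was the lowest of its slide on both slides that held one. On slide 2, Dppa3 minus its EGFP KD value was 0.16 for Chd4 KD replicate 1 and 0.08 and -0.21 for the arrays labelled Tet1 KD. With slide as a block, Dppa3 in Mbd3 KD was at -1.09 (SE 0.13, limma adjusted p = 0.059), and in the same fit the threshold was passed by Mbd3 KD minus Chd4 KD (-1.20, 0.03, with 1.26% of all genes called), Mbd3 KD minus Mbd2 KD (-1.03, 0.049, with 0.491%) and Dnmt1 KD minus Mbd3 KD (0.93, 0.049, with 0.697%).

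**Figure D3:**
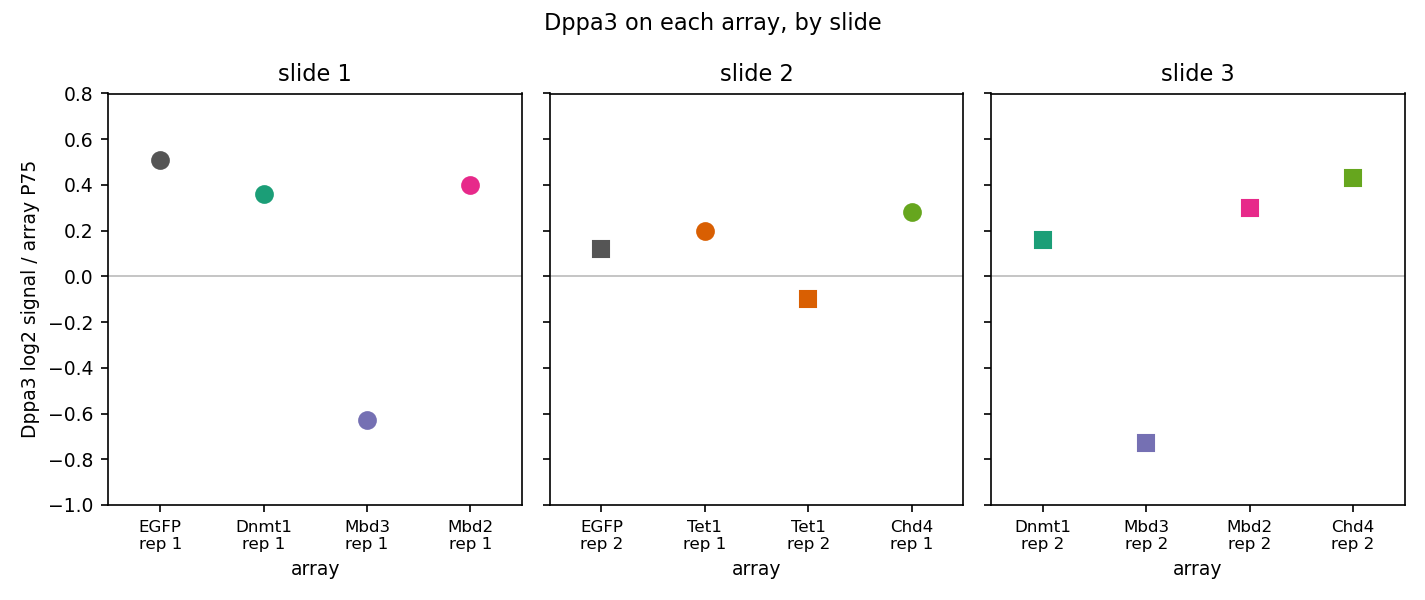
Log2 signal of Dppa3 over the array's 75th percentile (y axis) for each array (x axis), in 1 panel per slide, with circles for replicate 1 and squares for replicate 2. The Mbd3 KD arrays, at -0.63 on slide 1 and -0.73 on slide 3, are the lowest of their slides, and slide 3 holds no EGFP KD array.

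Markers of other cell types also differed in Mbd3 KD and are given beside the Dppa3 values, as log2 of their summed signal, which the brightest markers dominate. The level of 7 trophectoderm markers was 1.66 to 1.73 in EGFP KD, 2.18 to 2.28 in Mbd3 KD and 2.60 to 2.72 in Chd4 KD, with 4 of the 7 well above background on all arrays and Cdx2, the defining factor, not among them. That of 5 fibroblast markers was 2.34 to 2.46 in EGFP KD, 3.24 to 3.30 in Mbd3 KD and 3.22 to 3.62 in Chd4 KD, of which Thy1 rose in both by 1.28 and 1.42 on the log2 scale and Col1a1 rose in Chd4 KD by 2.49 (limma adjusted p = 0.011, 0.002 and 0.002). Of these 5 markers 3 lay below 0 in Mbd3 KD and 3 in Chd4 KD, with median log2 fold changes of -0.23 and -0.02. Of the 7 trophectoderm markers 4 lay above 0 and 3 below in Mbd3 KD, with a median of 0.18. In Chd4 KD 6 of the 7 lay above 0 and 1 below, with a median of 0.26. Among the trophectoderm markers Gata3 passed the test in Mbd3 KD (lower, limma adjusted p = 0.035, and 0.095 with slide as a block), but its probe was well above background on 0 of the 2 Mbd3 KD arrays and lay at the floor there, so no fold is given, and Krt18 rose by 1.18 in Chd4 KD (0.02), and of 4 primed epiblast markers Otx2 rose by 1.84 in Chd4 KD (0.013). Summed levels in EGFP KD and Mbd3 KD were 4.86 to 4.90 and 4.50 to 4.71 for primed epiblast, -0.11 to 0.72 and 0.26 to 0.48 for primitive endoderm, -2.13 to -2.10 and -2.63 to -2.19 for mesoderm and 1.82 to 1.88 and 1.92 to 2.23 for neural markers. ES cell markers summed to 7.18 to 7.34 in EGFP KD, 7.04 to 7.46 in Mbd3 KD and 7.08 to 7.25 in Chd4 KD, and 0 of the 9 were called in any KD by limma, with 0 at p under 0.05. Pou5f1, Esrrb and Zfp42 were saturated on 11 arrays and Utf1 on 7, so the sums are limited by the range of the scanner. Dppa3 was at 50.4% of its control signal in Mbd3 KD and at 103% in Chd4 KD. The part of the marker differences in the Dppa3 values was not tested.

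Dppa2, the SAP-domain partner of Dppa4, was read from probe A_66_P136844. Its log2 signal was 2.92 and 2.54 on the EGFP KD arrays, 2.73 and 2.14 in Dnmt1 KD, 2.36 and 2.42 on the arrays labelled Tet1 KD, 2.53 and 2.01 in Mbd3 KD, 2.76 and 2.40 on those labelled Mbd2 KD, and 2.19 and 2.02 in Chd4 KD. Both Chd4 KD arrays lay below both controls by a gap of 0.34, the Tet1 KD arrays by 0.12 and the Mbd3 KD arrays by 0.01, while Dnmt1 KD and Mbd2 KD overlapped the control. Ordered by mean the groups ran from Chd4 KD (2.11 ± 0.13, SD, n = 2) through Mbd3 KD (2.27 ± 0.37), Tet1 KD (2.39 ± 0.04), Dnmt1 KD (2.44 ± 0.41) and Mbd2 KD (2.58 ± 0.25) to EGFP KD (2.73 ± 0.27), and no step between neighbours exceeded the larger SD of the pair.

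No Dppa2 difference from EGFP KD passed the test, and the 5 comparisons share the same control arrays. Its log2 fold change was -0.62 (SE 0.26) in Chd4 KD, 65% of the control signal, with a limma adjusted p of 0.39. It was -0.46 in Mbd3 KD (limma adjusted p = 0.72), -0.34 on the arrays labelled Tet1 KD (1), -0.29 in Dnmt1 KD (0.94) and -0.15 on those labelled Mbd2 KD (1). Leaving out 1 array at a time gave -0.81 to -0.43 in Chd4 KD, -0.72 to -0.20 in Mbd3 KD and -0.53 to -0.15 for Tet1 KD, and -0.58 to 0 for Dnmt1 KD. Without the array labelled Tet1 KD replicate 1 the Tet1 KD value was -0.31, and leaving out replicate 1 as labelled Mbd2 KD the Mbd2 KD value was -0.33 (limma adjusted p = 1 and 0.79). Within slide 2, Dppa2 in Chd4 KD replicate 1 differed from EGFP KD by -0.34, and the fit with slide as a block gave -0.37 (SE 0.08, limma adjusted p = 0.084) in Chd4 KD, -0.38 (SE 0.09, 0.16) in Mbd3 KD, with Mbd2, Tet1 and Dnmt1 KD at -0.07, -0.16 and -0.22. The shares of all genes whose arrays did not overlap with the controls were 38.1% in Chd4 KD and 35.3% in Tet1 KD, against 1 and 2 of the 3 Dppa genes, and 21.1% in Dnmt1 KD and 22.9% in Mbd2 KD, against 0 Dppa genes in each.

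The other Dppa2 probe, A_55_P2059730, was near the 75th percentile, at -0.02 and -0.85 in EGFP KD, which set its control arrays far apart. Its values on the remaining 10 arrays ran from -0.69 to -0.19, all between those of the control arrays. Its log2 fold change was -0.16 in Chd4 KD and -0.13 in Mbd3 KD (SE 0.25). The probes of Dppa2 thus shared a sign in Tet1, Mbd3 and Chd4 KD and not in Dnmt1 and Mbd2 KD.

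Dppa4, the SAP-domain partner of Dppa2, was read from probe A_66_P101192. Its log2 signal was 2.15 and 1.75 in EGFP KD, 1.86 and 1.89 in Dnmt1 KD, 1.72 and 1.49 on the arrays labelled Tet1 KD, 1.44 and 2.08 in Mbd3 KD, 1.80 and 2.53 on those labelled Mbd2 KD, and 1.23 and 1.76 in Chd4 KD. Replicates were far apart in Mbd3, Mbd2 and Chd4 KD, and only the Tet1 KD arrays lay below both controls, by 0.02. The highest of all arrays was Mbd2 KD replicate 2 and the lowest was Chd4 KD replicate 1. Ordered by mean the groups ran from Chd4 KD (1.5 ± 0.38, SD, n = 2) through Tet1 KD (1.61 ± 0.17), Mbd3 KD (1.76 ± 0.45), Dnmt1 KD (1.87 ± 0.03) and EGFP KD (1.95 ± 0.29) to Mbd2 KD (2.17 ± 0.52), each step being smaller than the larger SD of its pair.

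Against EGFP KD the log2 fold change of Dppa4 was -0.45 in Chd4 KD, 73% of the control signal, with SE 0.33 and a limma adjusted p of 0.76. It was -0.35 on the arrays labelled Tet1 KD (limma adjusted p = 1), -0.19 in Mbd3 KD (0.92), -0.08 in Dnmt1 KD (1) and 0.21 on those labelled Mbd2 KD (1). Without the array labelled Tet1 KD replicate 1 the Tet1 KD value was -0.46, and leaving out replicate 1 as labelled Mbd2 KD the Mbd2 KD value was 0.58, neither called. The SE of Dppa4, 0.33, compares with 0.16 for Dppa3. The Dppa4 values also differed with slide. On slide 1 the difference from EGFP KD replicate 1 was -0.30 for Dnmt1 KD, -0.72 for Mbd3 KD and -0.36 for the array labelled Mbd2 KD, and on slide 2 that from EGFP KD replicate 2 was -0.02 and -0.26 for the arrays labelled Tet1 KD and -0.52 for Chd4 KD. Each of these sets of 3 differences rests on a single control array. With slide as a block Dppa4 was at -0.67 for Chd4 KD, at -0.53 for Mbd3 KD, at -0.42 for Dnmt1 KD, at -0.21 for Tet1 KD and at -0.13 for Mbd2 KD (SE 0.22 to 0.23), none with a limma adjusted p under 0.2.

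The 3 Dppa4 probes did not share a direction. Probe A_55_P2065549 was at 1.80 and 1.66 in EGFP KD, 1.42 and 1.85 in Dnmt1 KD, 1.47 and 1.18 on the arrays labelled Tet1 KD, 1.3 and 1.36 in Mbd3 KD, 1.61 and 1.59 on those labelled Mbd2 KD, and 1.18 and 1.62 in Chd4 KD, and its fold change ran from -0.41 in Tet1 KD to -0.10 in Dnmt1 KD. Probe A_55_P2158607 was at -0.61 and 0.10 in EGFP KD, -0.55 and 0.58 in Dnmt1 KD, 0.17 and 0.20 on those labelled Tet1 KD, 1.1 and 0.25 in Mbd3 KD, -0.65 and 0.28 on those labelled Mbd2 KD, and -0.24 and 0.19 in Chd4 KD. Its fold change ran from 0.07 in Mbd2 KD to 0.93 in Mbd3 KD (SE 0.51, limma adjusted p = 0.68 with each probe as its own row), where the other probes gave -0.40 and -0.19. Its 3 lowest values and its highest, 1.1, were all on slide 1, where Mbd3 KD replicate 1 minus EGFP KD replicate 1 was 1.71. With each probe as its own row, 0 Dppa probes were called by limma in any KD, with 0.765% of all probes called in Mbd3 KD and 3.15% in Chd4 KD. The direction of Dppa4 in a KD therefore depended on the probe read.

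**Figure D4:**
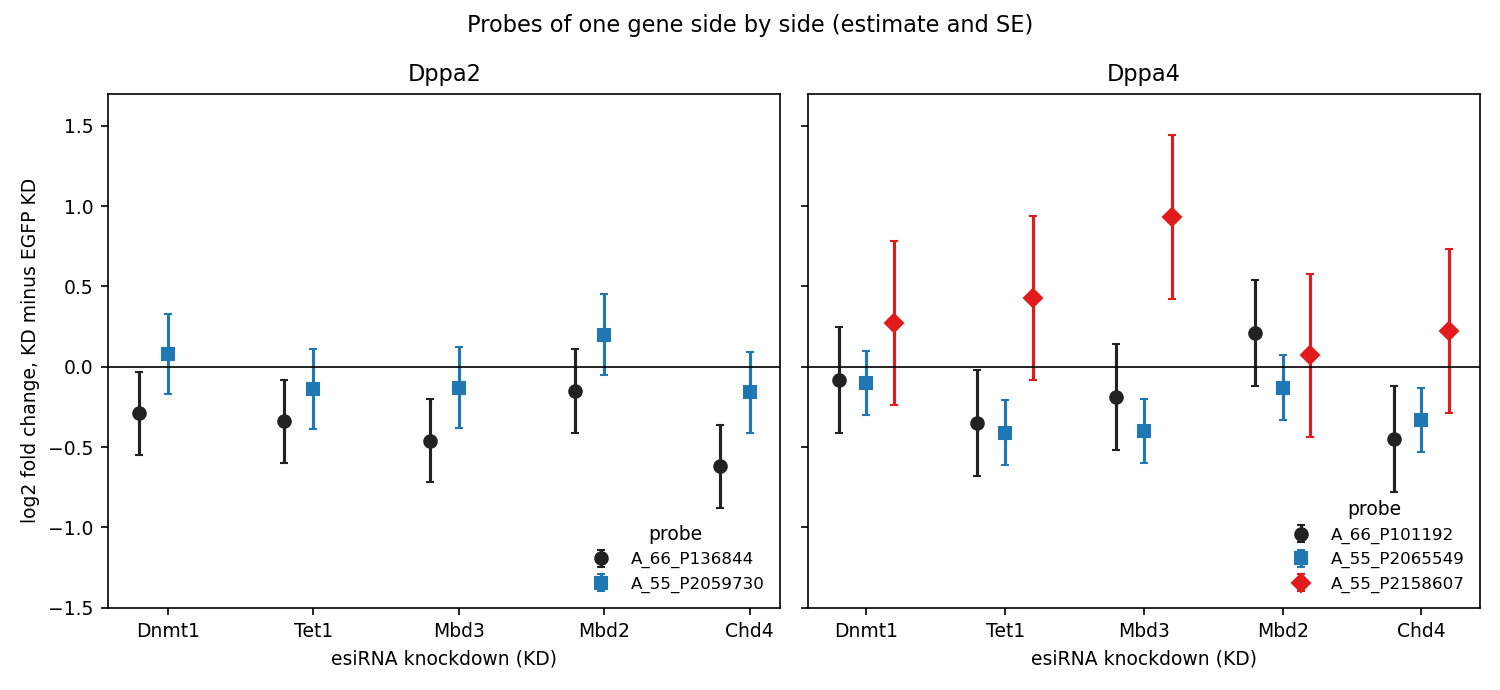
Log2 fold change of each KD against EGFP KD (y axis) for the 2 probes of Dppa2 and the 3 probes of Dppa4, by KD (x axis), with standard errors from the model fitted to every probe as its own row. Probe A_55_P2158607 of Dppa4 is at 0.93 in Mbd3 KD, where A_55_P2065549 is at -0.40 and A_66_P101192 at -0.19.

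Dppa5a, the KH-domain RNA-binding protein, was read from probe A_55_P2028171. Its log2 signal was 4.80 and 5.04 in EGFP KD, 5.21 and 4.79 in Dnmt1 KD, 5.47 and 5.00 on the arrays labelled Tet1 KD, 4.80 and 4.97 in Mbd3 KD, 4.94 and 4.92 on those labelled Mbd2 KD, and 5.13 and 4.66 in Chd4 KD. This probe was saturated on all 12 arrays, so no fold change is given. Any difference in Dppa5a above the scanner's limit could not be seen.

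Genes near the Dppa genes were followed because Dppa3 lies in a cluster of pluripotency genes. In the RefSeq table of the GRCm38.p6 assembly, Apobec1 and Gdf3 precede Dppa3 and Nanog, Slc2a3 and Foxj2 follow it. Of these 5 neighbours 4 were well above background on all arrays, and their median log2 fold change in Mbd3 KD was -0.26, with -0.033 over all genes. In that KD 0 of the 5 were called by limma, with 0.762% of all genes, and 1 had p under 0.05, with 9.66% of all genes. The values were -0.56 for Gdf3, a TGF-beta family ligand, -0.30 for Apobec1, -0.22 for Foxj2 and -0.15 for Slc2a3, a glucose transporter, each closer to 0 than Dppa3. The probe for Nanog, a core pluripotency factor, was close to the floor of -4.86 on the log2 scale, with means of -4.34 in EGFP KD, -4.69 in Mbd3 KD and -4.84 in Chd4 KD, and was well above background on 1 of 2 arrays in Mbd3 KD and on 1 of 2 in Chd4 KD, so no fold is read from it. In Chd4 KD, where Dppa3 was at 0.04, Gdf3 fell by 1.25 on the log2 scale (SE 0.18, limma adjusted p = 0.014), Apobec1 was at -0.42 (0.28), Slc2a3 at -0.29 (0.37) and Foxj2 at 0.38 (0.71). The median of the 4 neighbours well above background on all arrays was -0.35 there, with 0 over all genes. Of the 5, 1 was called by limma and 3 had p under 0.05, all lower, with 3.2 and 12.8% of all genes.

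**Figure D5:**
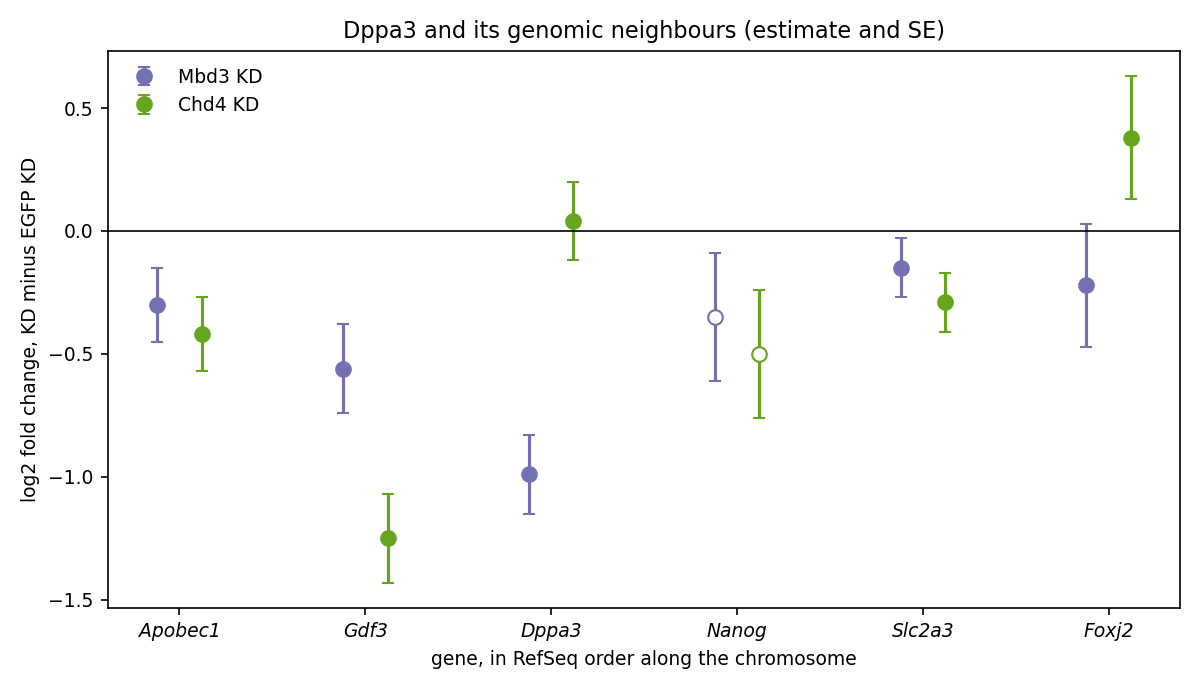
Log2 fold change in Mbd3 KD and in Chd4 KD against EGFP KD (y axis) for Dppa3 and 5 neighbours in RefSeq order (x axis), with standard errors. Dppa3 is at -0.99 in Mbd3 KD and 0.04 in Chd4 KD, and Gdf3, at -1.25 in Chd4 KD, is the value that passed the test. Open circles mark Nanog, whose probe was close to the floor.

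Dppa4 and Dppa2 lie side by side with Morc1 and Trat1 after them in the same table. Morc1, a germ line ATPase, was at -0.91 in Chd4 KD (SE 0.20, limma adjusted p = 0.065, and -1.05 with 0.017 with slide as a block) and -0.46 in Mbd3 KD (0.52), with Dppa2 at -0.62 and -0.46, and Trat1, a T cell receptor adaptor, was at 0.33 and 0.16. In the other KDs Morc1 lay between -0.43 and -0.03 and Trat1 between 0.18 and 0.41, and neither was called in these. Of 6 genes from the wider region around Dppa5a, among them the oocyte genes Ooep and Khdc3, 0 were called by limma in any KD. At most 2 of the 6 had p under 0.05, both lower, in Chd4 KD, where 12.8% of all genes did. Ooep, which directly follows Dppa5a, was at -0.10 in Mbd3 KD and -0.12 in Chd4 KD, Khdc3 at 0.14 and 0.24, and Eef1a1, saturated on 11 arrays, has no usable range. Mto1 was at -0.36 in Chd4 KD. Cd109, 1 of the 2 genes counted there, and Khdc1a were well above background on 11 and 6 of 12 arrays, so no fold is read from them.

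Genes of programmes in which the Dppa2 and Dppa4 pair is known to act were counted as lists. Of 32 genes of the 2-cell-stage embryo, 24 were tested, of which Sp110 was saturated on all arrays, and 0 were called by limma in any KD. Their median log2 fold change was -0.44 in Mbd3 KD (all genes, -0.033), and for Dnmt1, Tet1 and Mbd2 KD it was -0.28, 0.18 and 0.13 (all genes, -0.015, 0.085 and -0.004). In Chd4 KD the median was 0, as over all genes. In Mbd3 KD 4 of the 24 had p under 0.05, where 9.66% of all genes did in either direction, and these 4 were lower. In Chd4 KD 2 did, both higher, where 12.8% of all genes did. These counts and medians use all 24, of which 18 were well above background on all arrays, with a median of -0.52 in Mbd3 KD. Among the 18 the lowest in Mbd3 KD were Zscan4f at -1.59 (SE 0.49, limma adjusted p = 0.3), Gm4340 at -1.40 (0.45) and Zscan4c at -1.13 (0.39). Tcstv3 had means of -3.36 in EGFP KD and -4.69 in Mbd3 KD, near the floor. It was well above background on 0 of the 2 Mbd3 KD arrays, so no fold is read from it. Zscan4 genes are near-identical copies that probes may not separate.

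Of 10 bivalent or methylation-prone genes listed as candidate targets of Dppa2 and Dppa4, 9 were tested, with medians from -0.05 to 0.07 over the 5 KDs. Syce1, a synaptonemal complex gene, rose by 1.63 on the log2 scale in Chd4 KD (SE 0.21, limma adjusted p = 0.0087), and it was at 0.22 in Mbd3 KD (0.83). In Chd4 KD 4 of the 9 had p under 0.05, 3 higher and 1 lower. Of all genes 12.8% did so there and 3.2% were called. None of the 9 was called by limma in the other 4 KDs. At most 3 had p under 0.05 in any of them, in Mbd3 KD and in Dnmt1 KD, where 9.66 and 4.67% of all genes did. Gata4, an endoderm and heart factor, was at 1.36 in Mbd3 KD (limma adjusted p = 0.17). In that KD Nkx2-5, a heart factor, was at 1.35 (0.55) and Pramel12 at -0.87 (0.25). Of the 9 genes, 1 was higher and 2 were lower there at p under 0.05. With arrays as labelled, Gata4 was also above 0 elsewhere, at 0.84 (Chd4 KD), 1.21 (Mbd2 KD), 1.08 (Tet1 KD) and 1.57 (Dnmt1 KD). These Gata4 values share the same EGFP KD arrays, where its mean log2 signal was -3.32.

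Dppa3 acts with the DNA methylation machinery. A list of 10 genes around it was tested, which also includes Tet1, Tet2, Tet3, Tdg and Xpo1. Dnmt3l was saturated on all 12 arrays, and of the other 9 genes 0 were called by limma in any KD. At most 2 had p under 0.05. In Chd4 KD these were Tet2 and Uhrf1, both lower, where 12.8% of all genes had such a p. In Dnmt1 KD they were Dnmt1 itself, lower, and Dnmt3a, higher, where 4.67% of all genes did. Beside Dppa3 at -0.99 in Mbd3 KD, Uhrf1, the reader that recruits Dnmt1, was at -0.52 (SE 0.25, limma adjusted p = 0.61) and Dnmt3b, a de novo methyltransferase, at -0.41 (SE 0.11, 0.21). In Chd4 KD Tet2, an oxidizing enzyme, was at -0.98 (SE 0.25, limma adjusted p = 0.11). The median of these 9 was -0.09 in Mbd3 KD and -0.18 in Chd4 KD, and the target itself, Dnmt1, was at -1.99 in Dnmt1 KD (limma adjusted p = 0.39).

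Pluripotency genes gave the setting of the Dppa values. All 17 naive pluripotency genes were tested, with a median of -0.04 in Mbd3 KD and of -0.30 in Chd4 KD, and 1 was called, Gbx2, a homeobox factor, which fell by 2.66 in Chd4 KD (SE 0.25, limma adjusted p = 0.0032) and was at -1.55 in Mbd3 KD (0.055). Nr0b1, a nuclear receptor also known as Dax1, was at -1.16 in Chd4 KD (0.054, and -0.97 with 0.041 with slide as a block), and Tbx3, a T-box factor, at 0.78 in Mbd3 KD (0.55). Of 18 other ES-cell-associated transcripts, 3 of them saturated on all arrays, Rhox6, a homeobox gene of the X-linked Rhox cluster, rose by 1.52 in Mbd3 KD (SE 0.23, limma adjusted p = 0.04, and 0.056 with slide as a block) and Gdf3 fell in Chd4 KD as given above, while Rhox9 was at 1.06 in Mbd3 KD (0.11). Of the 17 naive genes, 13 lay below 0 in Chd4 KD. There 6 had p under 0.05, all lower, where 12.8% of all genes did, and 3.2% of all genes were called. In Dnmt1, Tet1, Mbd3 and Mbd2 KD 0 naive genes were called by limma. At most 4 had p under 0.05 in any of these, in Mbd3 KD, 2 higher and 2 lower, where 9.66% of all genes did. Of the 18 transcripts 1 was called in Mbd3 KD and 1 in Chd4 KD, with 0.762 and 3.2% of all genes. In Dnmt1, Tet1 and Mbd2 KD 0 of the 18 were called, with 0 at p under 0.05.

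The profile of each Dppa gene over the 12 arrays was set against those of 15188 genes with a symbol that were well above background on all arrays and saturated on none. For Dppa3 the most alike were Spata13 (Pearson r = 0.932), Fem1a (0.912) and Plbd2 (0.899), for Dppa2 they were Ctu2 (0.983), Tubg1 (0.972) and Ttf2 (0.968), and for Dppa4 they were Mrps9 (0.962), Dnajb12 (0.957) and Pycard (0.954). These coefficients describe 12 arrays that share 3 slides. Of these 9 genes, 3 were still among the 3 most alike by Spearman's rho, ties included, and 0 were after the mean of each slide was taken out, so the order among close profiles was not stable. Between members, Dppa2 and Dppa4 had r = 0.123 over the arrays as measured and r = 0.881 with slide means out, Dppa2 and Dppa3 had 0.345 and 0.483, and Dppa3 and Dppa4 had 0.182 and 0.315. The profiles of the brightest Dppa2 probe and the brightest Dppa4 probe were thus alike within slides and unlike between them. The other probes of these genes were not compared in this way.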

How the data were processed

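Total RNA of E14 ES cells was measured with 1 Cy3-labelled sample per Agilent 4 x 44K mouse array. The deposited scanner files hold intensity, corrected for background and spatial trend by Agilent Feature Extraction 10.7.1.1 but not normalized between arrays, and the study's methods call the replicates biological. Here each array's processed signal was divided by its 75th percentile over 43020 non-control spots, set to a floor of 0.0344 and taken to log2. Outlier spots were dropped, spots of a probe averaged and 469 probes with a missing value left out. Probes had to be well above background on both arrays of a group. Genes were named through RefSeq accessions, and the brightest probe stood for a gene, of which 5157 of 29546 had several. The array design used another build than the RefSeq table, so no coordinates are given. All 6 groups were fitted together with limma 3.58.1 in R 4.3.3, with Benjamini-Hochberg adjustment over all genes within a comparison and a threshold of 0.05, and the procedure was tested on simulated data.

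A table of log2 values, deposited by the authors, covers the 10 KD arrays. It matched log2 of the ratio between quantile-normalized log2 median signals and the EGFP KD mean (lowest r = 0.9991 over 5192 accessions), a scale on which differences are compressed to between 0.143 and 0.16 of their size, with column medians between -0.0062 and 0.0037. It was used as an alternative, in which a test against 0 leaves out the spread of the controls. Alternatives covered normalization, background correction (normexp, offset 50), filter, probe choice, floor, replicate number and slide as blocks, samples in the fit, variance prior, array weights and leaving out each array, and leaving out the arrays of Tet1 KD and Mbd2 KD was added after seeing the data.

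Genes named are the Dppa genes, their listed neighbours (1 of which is not reported here), called members of each gene list with at most 3 others as values, and the 3 genes most like each Dppa gene. The members and the gene lists were chosen with earlier results of these data known. No sequence is shown for the Dppa genes. The precision is limited by the number of arrays, 2 a group.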

Additional observations from a re-analysis of the deposited data

Results flagged for a closer look

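The difference of Dppa3 between Mbd3 KD and Chd4 KD, -1.03 on the log2 scale (SE 0.16, limma adjusted p = 0.036), is listed because the difference between these KDs was tested itself and passed the threshold. Both Mbd3 KD arrays (-0.63 and -0.73) lay below both Chd4 KD arrays (0.28 and 0.43). Groups of 2 arrays are too small for a test for outlying samples.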

How the results depend on the processing

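Dppa3 in Mbd3 KD kept its direction in 26 of 26 alternatives, from -1.18 to -0.80 outside the deposited table, with limma adjusted p from 0.0033 to 0.5, and was called in 2. These were the deposited table (-0.14 on its compressed scale) and the replicate block (-0.99, limma adjusted p = 0.043). The deposited table called 46% of all genes in Mbd3 KD and 56.7% in Chd4 KD. With the replicate block 1 Dppa gene was called in Mbd3 KD, with 0.833% of all genes. Deviations of same-numbered arrays correlated from -0.04 to 0.77, with 10 of 15 pairs of groups over 0.1. The correlations were 0.77, 0.71 and 0.64 among Dnmt1, Mbd3 and Mbd2 KD. These had replicate 1 on slide 1 and replicate 2 on slide 3, so replicate number and slide cannot be told apart there. Whether replicate numbers pair the samples is thus not settled, and the block changed no other Dppa call. The deposited table called 2 Dppa genes in Mbd3 KD, Dppa2 (-0.036) and Dppa3, 1 in Chd4 KD, Dppa2 (-0.032), and 51 genes of the lists against 4. It also called 5 differences between KDs. Among them were Dppa3 for Dnmt1 KD minus Mbd3 KD (0.13), Tet1 KD minus Mbd3 KD (0.11), Mbd3 KD minus Mbd2 KD (-0.13) and Mbd3 KD minus Chd4 KD (-0.13). In these 9.58, 13.4, 8.82 and 16.5% of all genes were called.

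Dppa3 in Mbd3 KD minus Chd4 KD kept its direction in 26 alternatives and its call in 10. It was lost with normexp (-0.96), probes well above background on all arrays, a lower floor, array weights and only the 4 arrays compared (-1.03 in each), each with 0 differences called, and without the arrays of Tet1 KD and Mbd2 KD (-1.03), while leaving out 1 array gave -1.11 to -0.95 and 0 to 1 calls. Slide as a block gave 3 calls, adding 0.93 for Dnmt1 KD minus Mbd3 KD and -1.03 for Mbd3 KD minus Mbd2 KD. Normexp called 2 list genes, the 4 arrays of a comparison 0, and leaving out 1 array 1 to 5. Of the 9 genes most alike, 3 stayed with Spearman and 0 with slide means out.

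Values that were not called changed sign as follows. With normexp, Dppa4 was at 0.01 in Dnmt1 KD and -0.04 in Mbd2 KD, Dppa2 at 0.06 in Tet1 KD and 0.13 in Mbd2 KD, and Dppa3 at -0.02 in Mbd2 KD and -0.09 in Chd4 KD. In the deposited table, where a gene's rows were averaged, Dppa4 was at 0.015, 0.0012 and 0.022 in Dnmt1, Tet1 and Mbd3 KD (in Mbd3 KD 1 of its 3 rows, at 0.193 and 0.13, carried the sign and the others were below 0), Dppa2 at 0.0076 in Mbd2 KD, and Dppa3 at -0.0042 in Mbd2 KD and -0.0097 in Chd4 KD. The mean of a gene's probes gave 0.03 in Dnmt1 KD and 0.11 in Mbd3 KD for Dppa4 and 0.02 in Mbd2 KD for Dppa2. The least bright probe gave 0.27, 0.43, 0.93 and 0.22 for Dppa4 in Dnmt1 KD, Tet1 KD, Mbd3 KD and Chd4 KD, and 0.08 and 0.20 for Dppa2 in Dnmt1 and Mbd2 KD. Slide as a block gave -0.06 for Dppa3 and -0.13 for Dppa4 in Mbd2 KD. Leaving out 1 array gave -0.25 to 0.14 for Dppa3 and -0.28 to 0.13 for Dppa4 in Dnmt1 KD, -0.51 to 0.13 for Dppa4 in Mbd3 KD, -0.34 to 0.04, -0.16 to 0.23 and -0.15 to 0.58 for Dppa2, Dppa3 and Dppa4 in Mbd2 KD, and -0.15 to 0.24 for Dppa3 in Chd4 KD. The cause was not tested. Dppa5a, saturated throughout, and 2 arrays a group limit what could be seen.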
